A study of Mus musculus with 12 samples.

Results

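The nuclear genes of oxidative phosphorylation were followed across 4 groups of mouse embryonic stem cells. Members were the protein-coding nuclear genes whose symbol starts with Nduf, Uqcr or Atp5, is Sdha to Sdhd, or is Cox followed by 4, 5, 6, 7 or 8. The rule found 93 genes among the 43346 gene IDs of the table: 38 complex I subunits, 8 complex I assembly factors (Ndufaf genes), 4 complex II, 8 complex III and 18 complex IV subunits, and 17 ATP synthase genes. The symbols alone set the complex, so Ndufa4, whose protein is found with complex IV, was counted with complex I. RNA was sequenced in 12 libraries, 3 a group, from C57BL/6J (B6), DBA/2J (D2) and a reciprocal pair of congenic lines. B6-13D2 carries a stretch of D2 chromosome 13 in a B6 genome, and D2-13B6 carries a stretch of B6 chromosome 13 in a D2 genome. All 4 groups were grown in fetal bovine serum with LIF and the kinase inhibitors PD0325901 (MEK) and CHIR99021 (GSK3). The congenic lines ask which differences between the strains go with the alleles of chromosome 13, and the reciprocal pair asks whether they do so in both genomes.

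Oxidative phosphorylation takes electrons from NADH (complex I) and succinate (complex II), passes them through ubiquinone to complex III, through cytochrome c to complex IV and on to oxygen, and uses the proton gradient built on the way to drive ATP synthase. Complexes I, III, IV and ATP synthase each combine subunits encoded in the nucleus with a few encoded in mitochondrial DNA, while complex II is wholly nuclear. Embryonic stem cells in culture rely heavily on glycolysis but keep a working respiratory chain.

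Each strain was sampled as separate cultures of a single cell line, per the labels' protocols, so strain and line cannot be told apart, and p-values measure the spread between cultures of a line. The labels conflict in places. B6 replicate 3 has another line name than B6 replicates 1 and 2, the D2 titles and cell line field name different lines, the titles call the replicates technical, the molecule field reads genomic DNA, and the far end of the D2-13B6 segment is given differently in the sample labels and the design text. The ends of the segments are given only as marker names, so which members lie inside them is not stated here. Column names of the congenic libraries carry a prefix that the parental ones lack, and whatever it records is inseparable from congenic against parental status: these cannot be told apart. Library totals ran from 22184196 to 36411799 expected counts (read counts estimated by the authors, with shared reads divided), and the members held 0.833% to 1.129% of them.

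The stem cell label was checked against 10 marker genes, Pou5f1 and Nanog among them. None was at 0, and their summed level averaged 5385 CPM (counts scaled to a common library size by TMM) in B6, 6223 in B6-13D2, 3699 in D2 and 4512 in D2-13B6. Markers of fibroblasts, the cells often used as feeders, were also plentiful: 8 genes, none at 0, summed to 9383 to 10191 CPM in B6, 3095 to 3182 in B6-13D2, 14177 to 16967 in D2 and 7731 to 8055 in D2-13B6, led by the collagens Col1a1 and Col1a2. The labels mention no feeders. Sums over markers of other early cell types were far lower, and each was led by 1 gene: 7 of primitive endoderm averaged 32.9 CPM in B6, 15.4 in B6-13D2, 42.7 in D2 and 37.2 in D2-13B6, and 4 of trophectoderm 18.3, 11.5, 20.4 and 29.8 in the same order. The 4 neuroectoderm markers averaged 3.61, 7.32, 5.47 and 3.79, and the 4 mesoderm markers 13.5, 16.1, 8.73 and 8.56. The leading genes were Dab2, Krt8, Sox1 and Eomes, and members of several lists went different ways. In B6-13D2 against B6, the neuroectoderm marker Sox1 (1.22) rose while Pax6 (-2.79) fell. The mesoderm marker Eomes (0.41) rose there while T (-0.88) fell. Of the stem cell markers, Klf4 fell in that comparison (-0.38) while the sum was higher. Utf1 was higher in D2 than in B6 (0.58) while the sum was lower. Of the primitive endoderm markers, Gata6 was higher (0.97) and Gata4 lower (-1.05) in D2 than in B6. The stem cell sum put the groups in the same order as the members below, and the fibroblast sum put B6-13D2 lowest and D2 highest; the part of any of these markers in the results was not tested. In bulk RNA, fewer cells of a type and less RNA per cell cannot be told apart.

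Taken as a sum, the 93 members were highest in B6-13D2 and lowest on the D2 background. They summed to 9535, 9537 and 10226 CPM in the 3 B6 libraries and to 8881, 8837 and 8414 in D2. The sums were 10369.7, 11267 and 10460.5 in B6-13D2 and 8872, 8870.1 and 8936 in D2-13B6. All 6 libraries with a B6 genome outside the segment thus lay above all 6 with a D2 genome, and the B6-13D2 libraries lay above the B6 ones, while D2 and D2-13B6 overlapped. Of the 90 members with enough reads to be tested, 71 had their highest mean in B6-13D2, against 31.4% of all tested genes. The lowest mean was in D2 for 44 members and in D2-13B6 for 34, against 29.1% and 19.7% of all tested genes. For 34 members each of the 6 B6-background libraries exceeded each of the 6 D2-background ones, a pattern of 15.9% of all tested genes.

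**Figure D1:**
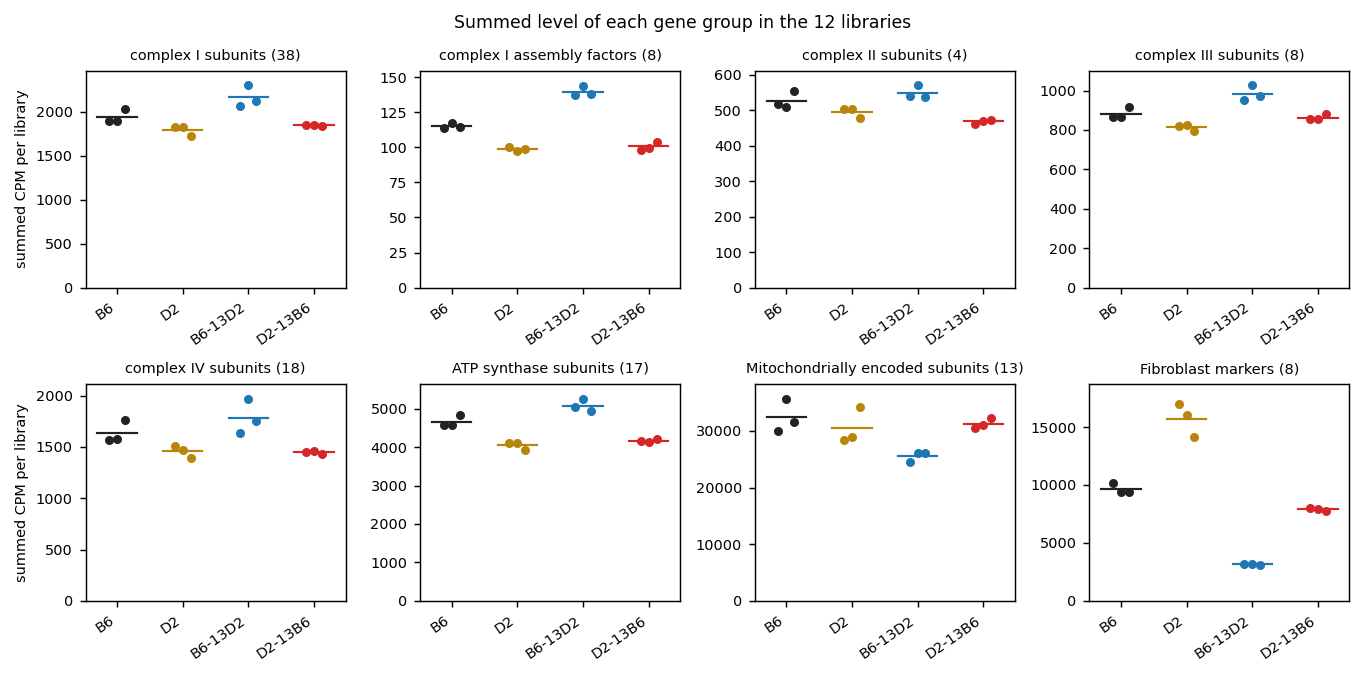
Summed CPM (vertical axis, from 0) of the genes of each complex, of the mitochondrially encoded subunits and of the fibroblast markers in each library (points) of the 4 groups, with the group mean as a bar (n = 3); the number of genes is in brackets. All 6 nuclear groups are highest in B6-13D2, where the mitochondrially encoded genes and the fibroblast markers are lowest.

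Libraries of a group did not scatter independently over the members. B6-13D2 replicate 2 was the highest of its group for 77 of 90 members, against 38.8% of all tested genes. B6 replicate 3 was the highest of its group for 62 members, against 36.4%. This is the library with another line name, so line and culture cannot be told apart for it. D2 replicate 3 was the lowest of its group for 63, against 38.1%. Counts are therefore also given without these 3 libraries, a choice made after seeing the values.

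D2 and B6 were compared first, to find the difference between the parental strains. A gene was called when its Benjamini-Hochberg adjusted p over all 17148 tested genes was under 0.05 in edgeR's quasi-likelihood test. In D2, 46 of the 90 members were called lower than in B6 and 5 higher, where 60.0% of all tested genes were called, 30.3% lower and 29.8% higher. The members were thus called about as often as other genes but mostly in one direction. Their median log2 fold change was -0.153, against 0.012 for all tested genes, so the typical change was small. The members called higher in D2 were Ndufa8, Ndufa11, Ndufs7, Sdhc and Uqcrq. The Ndufa11 call (0.11, adjusted p = 0.041) was lost under 10 of 19 alternatives, 8 of them leaving out 1 library, with adjusted p up to 0.177. Without the 3 libraries, 35 members were lower and 8 higher, and the median was -0.098. The members called higher fell to 1 without B6 replicate 1 or without D2 replicate 1, and to 2 without replicate 2 of either strain.

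The D2 segment in the B6 genome went with higher levels. In B6-13D2 against B6, 44 members rose and 2 fell, Ndufaf4 and Cox7a2l, with 58.3% of all tested genes called, 25.4% higher and 32.9% lower. The median member changed by 0.159 on the log2 scale, against -0.035 for all tested genes. Without the 3 libraries, 50 rose and 3 fell, and the median was 0.135. Leaving out B6-13D2 replicate 2 alone gave 32 that rose and 3 that fell.

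The B6 segment in the D2 genome gave no such one-sided shift. In D2-13B6 against D2, 20 members rose and 11 fell, with 57.3% of all tested genes called, 27.6% higher and 29.7% lower. The median member changed by 0.022, against 0.000 for all tested genes. This split was not stable: with only genes of a mean CPM of at least 1, 15 rose and 17 fell, without D2 replicate 3 it was 15 and 15, without D2 replicate 1 it was 24 and 6, without D2-13B6 replicate 2 it was 15 and 9, and without the 3 libraries it was 19 and 18.

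The congenic lines were set against each other, which compares both the segments and the rest of the genome at once. In D2-13B6 against B6-13D2, 68 members were lower and 2 higher, with 70.2% of all tested genes called, 31.8% lower and 38.4% higher. The median was -0.276, against 0.058 for all tested genes. Without the 3 libraries 64 were lower and 4 higher, and without B6-13D2 replicate 2 alone 61 and 4. The members called higher in D2-13B6 were Atp5h and Cox7b2.

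The last comparison took the mean of the congenic lines minus the mean of the parental lines, which is also 0.5 times the difference of the D2 segment effect between the B6 and D2 genomes. Here 41 members were higher and 3 lower (Ndufaf4, Cox4i1 and Cox7a2l), with 64.5% of all tested genes called, 31.1% higher and 33.4% lower. Their median was 0.096, against 0.001 for all tested genes. Without B6-13D2 replicate 2, 36 were higher and 8 lower, without D2 replicate 3 it was 38 and 6, and without B6 replicate 1 it was 37 and 5. Of the 90 tested members, 6 were called in none of the 5 comparisons, against 9.86% of all tested genes.

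**Figure D2:**
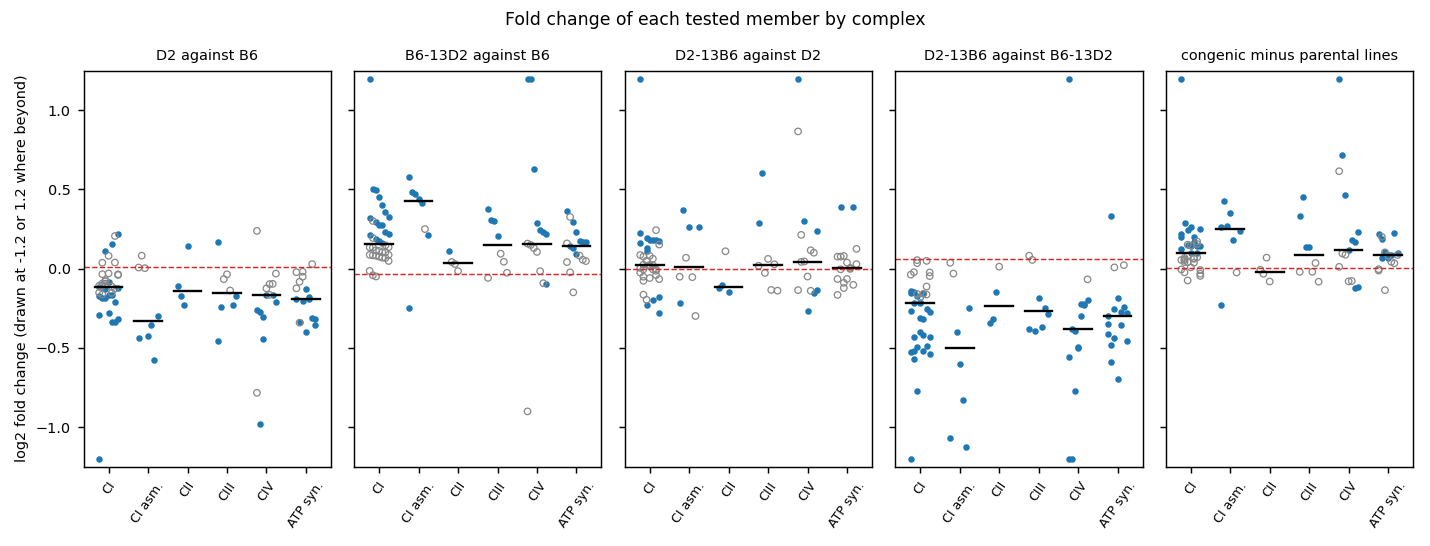
Log2 fold change (vertical axis, drawn at the edge where beyond 1.2) of each tested member in the 5 comparisons, split into complex I subunits (CI), complex I assembly factors (CI asm.), complexes II to IV (CII, CIII, CIV) and ATP synthase; filled points were called, open ones were not, black bars are medians and the red dashed line is the median of all tested genes. The medians of all 6 groups lie below that line both for D2 against B6 and between the congenic lines, and above it in B6-13D2 against B6.

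Complex I, the entry point for electrons from NADH, followed this general pattern. Of its 38 subunits, 16 were lower and 3 higher in D2 than in B6, where 30.3% of all tested genes were lower and 29.8% higher. In B6-13D2 against B6, 17 rose and none fell, against 25.4% and 32.9%, and 26 were lower in D2-13B6 than in B6-13D2, against 31.8%. Without the 3 libraries, the D2 against B6 count came to 8 lower and 5 higher. Core subunits were among those that rose: Ndufv1, which binds the flavin that accepts electrons from NADH, measured 90.3, 89.7 and 98.3 CPM in the 3 B6 libraries, 115, 121 and 112 in B6-13D2, 86.4, 89.8 and 79.2 in D2 and 96.1, 98.2 and 94.1 in D2-13B6. The B6-13D2 libraries stood above all others. Its log2 fold change was 0.33 ± 0.048 (adjusted p = 1.46e-05) in B6-13D2 against B6 and 0.17 ± 0.048 (adjusted p = 0.0052) in D2-13B6 against D2.

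Some accessory subunits, which surround the core, rose further. Ndufa6 measured 33.9, 35.6 and 39.7 CPM in the 3 B6 libraries, 47.3, 55.6 and 51.9 in B6-13D2, 35.4, 34.8 and 31.9 in D2 and 36.2, 36.1 and 35.6 in D2-13B6. Its 3 B6-13D2 libraries lay above the other 9, and the log2 fold change against B6 was 0.50 ± 0.064 (adjusted p = 2.27e-06). Ndufs6, a zinc-binding accessory subunit at chr13:73319838-73328542 on GRCm38, measured 18.1, 19.9 and 20.1 CPM in the 3 B6 libraries, 21.5, 30.8 and 29.9 in B6-13D2, 16.9, 18.3 and 19.8 in D2 and 17.3, 15.3 and 15.2 in D2-13B6. B6-13D2 replicate 1 lay close to the B6 libraries and the other 2 far above them, with a log2 fold change of 0.50 ± 0.11 (adjusted p = 0.000617) against B6. Ndufs6 shares exon sequence with Mrpl36 on the other strand, and Mrpl36 changed by 0.27 in the same comparison (use of strand in counting is not given in the sources used here).

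The Fe-S subunits that carry electrons inside complex I went both ways in D2-13B6 against D2. Ndufs1 and Ndufv2 were higher, at 0.13 ± 0.038 (adjusted p = 0.00693) and 0.18 ± 0.054 (adjusted p = 0.00787), as was Ndufv1 above, while Ndufs7 and Ndufs8 were lower. Ndufs7 measured 36.6, 37.8 and 40.1 CPM in the 3 B6 libraries, 44.6, 47.9 and 46.1 in B6-13D2, 42.6, 42.1 and 43.0 in D2 and 35.5, 37.5 and 38.1 in D2-13B6. The D2 libraries lay above both the B6 and the D2-13B6 libraries, and B6-13D2 above B6, with log2 fold changes of 0.16 ± 0.048 (adjusted p = 0.00984) in D2 against B6, 0.28 ± 0.047 (adjusted p = 7.65e-05) in B6-13D2 against B6 and -0.20 ± 0.047 (adjusted p = 0.0013) in D2-13B6 against D2. Each line with the D2 segment thus had more Ndufs7 RNA than its partner with the B6 segment. The D2 against B6 call was lost without B6 replicate 1 (0.12, adjusted p = 0.0585). Ndufs8 measured 28.9, 30.7 and 32.4 CPM in the 3 B6 libraries, 34.1, 32.3 and 30.9 in B6-13D2, 28.5, 25.9 and 26.8 in D2 and 21.8, 22.1 and 25.3 in D2-13B6. The D2-13B6 libraries were below all others, and the change against D2 was -0.23 ± 0.065 (adjusted p = 0.00583), but B6-13D2 against B6 gave 0.08 ± 0.064 (adjusted p = 0.294).

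The largest relative change of any member with a mean of at least 1 CPM was in Ndufa4l2, a low-abundance paralog of Ndufa4 that is known as a hypoxia-responsive gene. It measured 3.51, 2.77 and 3.34 CPM in the 3 B6 libraries, 12.3, 12.7 and 12.7 in B6-13D2, 0.458, 0.806 and 0.910 in D2 and 1.89, 2.19 and 2.01 in D2-13B6. The 4 groups did not overlap, in the order B6-13D2, B6, D2-13B6 and D2. Its log2 fold changes were -2.13 ± 0.19 (adjusted p = 2.93e-08) in D2 against B6, 1.97 ± 0.12 (adjusted p = 2.45e-10) in B6-13D2 against B6 and 1.47 ± 0.19 (adjusted p = 3.91e-06) in D2-13B6 against D2. It therefore rose in both congenic lines. Ndufa4 itself, at 65.4 CPM per kb of exon in B6 against 2.93 for Ndufa4l2, changed by -0.01 ± 0.038 in B6-13D2 against B6. The exons of Ndufa4l2 overlap Shmt2 on the other strand, which averaged 209.7 CPM in B6 and 319 in B6-13D2; its part in the result was not tested.

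**Figure D3:**
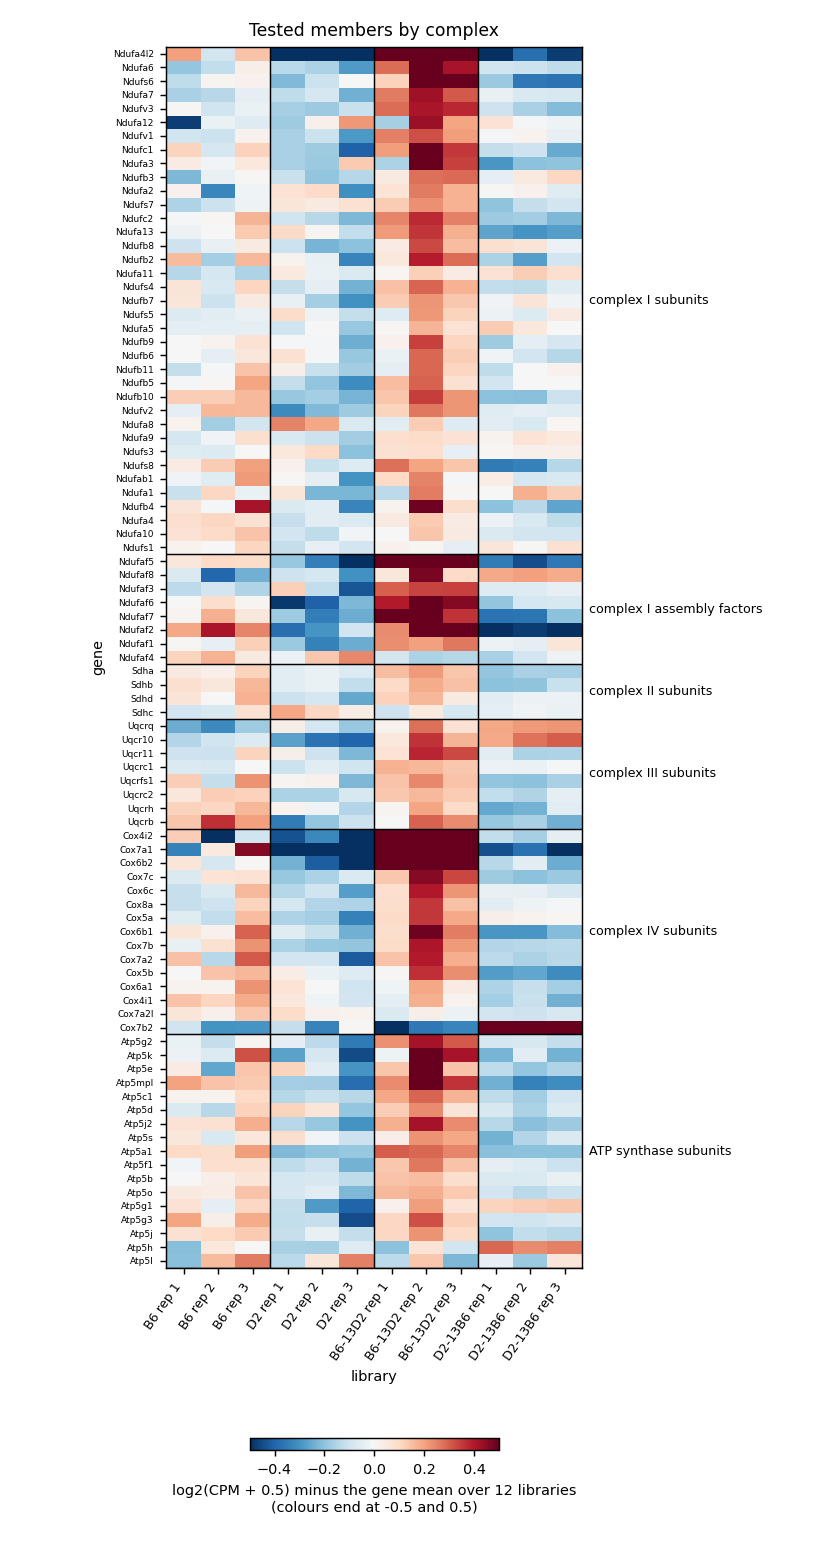
Level of the tested members but 1 (rows, by complex and then by log2 fold change in B6-13D2 against B6) in each library (columns), as log2(CPM + 0.5) minus the gene's mean over the 12 libraries, with colours ending at -0.5 and 0.5. Red fills most of the B6-13D2 columns, deepest in replicate 2, and blue most of the D2 and D2-13B6 columns.

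The complex I assembly factors, which build the enzyme without remaining in it, had the largest median shift of the 6 groups in B6-13D2 against B6. Of 8, 6 rose and 1 fell (25.4% and 32.9% of all tested genes), with a median of 0.429, and 5 were lower in D2 than in B6 (30.3%) with none higher. Leaving out the 3 libraries gave the same counts. Ndufaf5, which modifies an arginine of Ndufs7 during assembly, measured 12.6, 13.0 and 12.9 CPM in the 3 B6 libraries, 19.1, 19.2 and 19.5 in B6-13D2, 10.6, 9.46 and 8.42 in D2 and 9.40, 8.77 and 9.36 in D2-13B6. The groups ordered B6-13D2, B6 and then D2 and D2-13B6, which overlapped, and the log2 fold changes were -0.44 ± 0.077 (adjusted p = 9.85e-05) in D2 against B6 and 0.58 ± 0.071 (adjusted p = 1.34e-06) in B6-13D2 against B6. Ndufaf7, a methyltransferase, was 18.6 ± 1.15 CPM (SD, n = 3) in B6, 24.8 ± 1.91 in B6-13D2, 14.6 ± 0.867 in D2 and 14.0 ± 0.965 in D2-13B6, with the same order of the first 2 groups. Ndufaf2, at chr13:108002715-108158623, measured 8.35, 9.78 and 8.66 CPM in the 3 B6 libraries, 8.62, 12.1 and 11.1 in B6-13D2, 5.46, 5.81 and 6.74 in D2 and 4.85, 5.06 and 4.63 in D2-13B6. Its libraries on the D2 background were all below those on the B6 background. The log2 fold changes were -0.58 ± 0.12 (adjusted p = 0.000611) in D2 against B6 and -1.13 ± 0.12 (adjusted p = 1.29e-07) in D2-13B6 against B6-13D2. Neither congenic line was called against its background strain, at 0.25 ± 0.11 (adjusted p = 0.0721) in B6-13D2 and -0.30 ± 0.13 (adjusted p = 0.0549) in D2-13B6. In both, the line with the D2 segment had the higher mean.

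A pair of assembly factors moved in opposite directions in the congenic lines, and their promoters are shown for that reason. Ndufaf4, which helps assemble the ubiquinone-binding module, measured 25.7, 26.8 and 24.5 CPM in the 3 B6 libraries, 22.2, 21.2 and 21.4 in B6-13D2, 23.2, 26.1 and 28.1 in D2 and 21.2, 22.2 and 23.3 in D2-13B6. The B6-13D2 libraries lay below the B6 ones, with log2 fold changes of -0.25 ± 0.066 (adjusted p = 0.00392) in B6-13D2 against B6 and -0.22 ± 0.064 (adjusted p = 0.0078) in D2-13B6 against D2, where the libraries overlapped. Ndufaf1, part of the membrane assembly complex, measured 19.5, 18.8 and 21.1 CPM in the 3 B6 libraries, 22.9, 22.4 and 23.4 in B6-13D2, 17.0, 15.2 and 16.3 in D2 and 19.0, 18.7 and 20.2 in D2-13B6. It rose by 0.21 ± 0.061 (adjusted p = 0.00663) and 0.26 ± 0.061 (adjusted p = 0.00144) in the same comparisons, with no overlap between groups in either. The stretches below are the 250 bases before the annotated start in RefSeq (GRCm38.p6), 5′ to 3′ on the gene's strand, at chr4:24897833-24898082 on the plus strand for Ndufaf4 and chr2:119662835-119663084 on the minus strand for Ndufaf1; no annotated exon lies in them. Capitals mark the NRF1 motif GCGCATGCG in the first, matched on both strands with overlap, and the ETS motif CCGGAAG in the second.
Ndufaf4: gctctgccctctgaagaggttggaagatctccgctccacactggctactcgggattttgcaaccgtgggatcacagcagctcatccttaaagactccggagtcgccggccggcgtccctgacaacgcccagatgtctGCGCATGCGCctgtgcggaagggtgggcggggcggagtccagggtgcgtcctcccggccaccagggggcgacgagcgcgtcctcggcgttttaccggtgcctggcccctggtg
Ndufaf1: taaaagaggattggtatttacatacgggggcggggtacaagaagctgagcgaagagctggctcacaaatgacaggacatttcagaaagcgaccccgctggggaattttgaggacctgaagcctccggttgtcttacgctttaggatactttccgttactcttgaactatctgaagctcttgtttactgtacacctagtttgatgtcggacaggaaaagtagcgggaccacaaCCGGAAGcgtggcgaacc

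These motifs are known binding sequences of factors tied to respiratory chain genes, NRF1 and the ETS family member GABP. Each was searched on both strands, together with the YY1 motif AAGATGGCG, in windows of 250 bases before to 50 after each start. Of the 93 members, 76 had an entry in the promoter table, with 81 windows. The NRF1 letters were in 12.3% of these windows against 1.75% of the 32851 windows of all genes, the YY1 letters in 9.88% against 1.40%, and the ETS letters in 22.2% against 8.86%. Members with and without a match are set side by side, and their difference was not tested. Of 30 with any of the motifs, 15 rose and 1 fell in B6-13D2 against B6 (median 0.166), and of 45 tested members with none, 21 rose and 1 fell (median 0.149), where 25.4% of all tested genes rose and 32.9% fell. A match is a description of these windows and no evidence of binding.

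Complex II, succinate dehydrogenase, has 4 subunits. In D2 against B6, 3 were lower and 1 higher (30.3% and 29.8% of all tested genes), with a median of -0.141. In D2-13B6 against D2, 3 fell (29.7%), and 3 were lower in D2-13B6 than in B6-13D2 (31.8%), while 1, Sdha, rose in B6-13D2 against B6 (25.4%). Sdha, its flavoprotein at chr13:74322254-74350280, measured 240.2, 237 and 252 CPM in the 3 B6 libraries, 259.7, 270.5 and 256 in B6-13D2, 224, 228 and 223 in D2 and 203, 208 and 207 in D2-13B6. The groups did not overlap, with B6-13D2 highest, then B6, then D2, and D2-13B6 lowest. The log2 fold changes were 0.11 ± 0.034 (adjusted p = 0.00938) in B6-13D2 against B6 and -0.12 ± 0.034 (adjusted p = 0.0044) in D2-13B6 against D2, so each line with the D2 segment was higher than its partner. In D2 against B6 the value was -0.11 ± 0.034 (adjusted p = 0.00899), a call that was lost under 3 of 19 alternatives, namely a floor of 1 mean CPM, DESeq2 and RLE scaling (-0.06 in each, adjusted p = 0.103 to 0.156). Sdhb, the Fe-S subunit, was 73.3 ± 2.91 CPM in B6, 75.4 ± 2.45 in B6-13D2, 65.0 ± 2.05 in D2 and 60.5 ± 2.22 in D2-13B6 (SD, n = 3), and was lower in D2 than in B6, with a log2 fold change of -0.17 ± 0.044 (adjusted p = 0.00265). In D2-13B6 against D2 its value was -0.11 ± 0.043 (adjusted p = 0.0439), a call that was lost under 9 of 19 alternatives, among them without D2 replicate 1 (-0.09, adjusted p = 0.156), D2 replicate 2 (-0.09, adjusted p = 0.15), B6-13D2 replicate 3 (-0.11, adjusted p = 0.0532), D2-13B6 replicate 1 (-0.09, adjusted p = 0.147) and D2-13B6 replicate 2 (-0.09, adjusted p = 0.137). Of the membrane anchors, Sdhd was also lower in D2, with -0.23 ± 0.05 (adjusted p = 0.000758), and Sdhc was higher there, with 0.14 ± 0.052 (adjusted p = 0.0236). Sdhc fell in D2-13B6 against D2, with -0.15 ± 0.051 (adjusted p = 0.0196). The D2 against B6 call of Sdhc was lost without B6 replicate 1 (0.11, adjusted p = 0.116), B6 replicate 2 (0.12, adjusted p = 0.096) or D2 replicate 1 (0.10, adjusted p = 0.12). Its call in D2-13B6 against D2 was lost without D2 replicate 1 (-0.09, adjusted p = 0.163) or D2-13B6 replicate 1 (-0.14, adjusted p = 0.0607).

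In complex III, which passes electrons from ubiquinol to cytochrome c, 4 of 8 subunits rose in B6-13D2 against B6 (25.4% of all tested genes). In D2 against B6, 4 were lower and 1 higher (30.3% and 29.8%). Uqcrb, which sits near the quinone site, measured 59.0, 69.1 and 61.9 CPM in the 3 B6 libraries, 53.5, 65.9 and 63.2 in B6-13D2, 41.9, 46.8 and 49.8 in D2 and 46.9, 47.9 and 45.4 in D2-13B6. The 6 D2-background libraries were all below the 6 B6-background ones, whichever segment they carried, with log2 fold changes of -0.46 ± 0.075 (adjusted p = 4.54e-05) in D2 against B6 and -0.38 ± 0.073 (adjusted p = 0.000145) in D2-13B6 against B6-13D2. The changes with the segment were -0.06 ± 0.073 in B6-13D2 and 0.02 ± 0.075 in D2-13B6, neither called. Uqcrb lies on chromosome 13, at chr13:66900617-66905378. Uqcrfs1, the Rieske Fe-S protein, at chr13:30540308-30545362, was 101 ± 12.2 CPM in B6, 108 ± 4.40 in B6-13D2, 91.7 ± 8.69 in D2 and 83.7 ± 1.38 in D2-13B6 (SD, n = 3). It was called only between the congenic lines, at -0.37 ± 0.07 (adjusted p = 0.000153).

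The small accessory subunits Uqcr10 and Uqcrq were high in both congenic lines. Uqcr10 measured 65.4, 67.6 and 69.2 CPM in the 3 B6 libraries, 75.1, 93.1 and 81.6 in B6-13D2, 60.1, 55.9 and 54.9 in D2 and 82.7, 87.6 and 89.4 in D2-13B6. Every congenic library lay above every parental one, and the congenic minus parental difference was 0.45 ± 0.044 (adjusted p = 5.04e-08). It rose by 0.60 ± 0.062 (adjusted p = 1.65e-07) in D2-13B6 against D2 and by 0.31 ± 0.062 (adjusted p = 0.000373) in B6-13D2 against B6. Uqcrq measured 69.0, 65.9 and 72.6 CPM in the 3 B6 libraries, 83.0, 99.4 and 86.7 in B6-13D2, 83.8, 77.2 and 71.9 in D2 and 94.0, 95.2 and 95.8 in D2-13B6. Its congenic libraries overlapped the D2 ones, and the difference was 0.33 ± 0.043 (adjusted p = 2.49e-06).

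Complex IV, cytochrome c oxidase, has isoforms of several subunits, one common and others known from heart, muscle, lung or testis. In these cells the common isoforms were the more abundant. Cox6a1 was at 218 CPM per kb of exon in B6 against 0.0626 for Cox6a2, and Cox4i1 was at 203 against 0.403 for Cox4i2. Cox7a2 was at 75.7 against 4.64 for Cox7a1, and Cox6b1 at 119 against 15.0 for Cox6b2. Cox6a2, Cox8b and Cox8c, with 10, 1 and 18 reads over all 12 libraries, had too few to be tested. Of the 15 tested complex IV genes, 7 rose and 1 fell in B6-13D2 against B6 (25.4% and 32.9% of all tested genes), 8 were lower in D2 than in B6 (30.3%), and 13 were lower in D2-13B6 than in B6-13D2 (31.8%).

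The rarer isoforms had large relative changes. Cox7a1, the heart and muscle form, measured 1.71, 2.39 and 3.34 CPM in the 3 B6 libraries, 5.23, 6.24 and 5.93 in B6-13D2, 1.29, 1.39 and 1.05 in D2 and 1.56, 1.66 and 1.12 in D2-13B6. B6-13D2 lay above all other libraries, and the log2 fold changes were 1.22 ± 0.19 (adjusted p = 3.11e-05) in B6-13D2 against B6 and -0.98 ± 0.23 (adjusted p = 0.00155) in D2 against B6. Its common counterpart Cox7a2 gave 0.13 ± 0.093 (adjusted p = 0.246) and -0.31 ± 0.10 (adjusted p = 0.0107), the latter call lost without B6 replicate 3 (-0.20, adjusted p = 0.0831) or D2 replicate 3 (-0.21, adjusted p = 0.054). Cox6b2, known from testis, measured 17.4, 15.7 and 16.7 CPM in the 3 B6 libraries, 24.1, 27.8 and 25.2 in B6-13D2, 14.0, 12.4 and 9.92 in D2 and 15.0, 16.0 and 13.9 in D2-13B6. Again B6-13D2 lay above the other 9 libraries, at 0.63 ± 0.09 (adjusted p = 9.19e-06) against B6, where Cox6b1 gave 0.16 ± 0.082 (adjusted p = 0.108).

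Cox4i2, the lung and hypoxia form, stayed under 1.2 CPM everywhere. It measured 0.483, 0.126 and 0.343 CPM in the 3 B6 libraries, 1.14, 0.906 and 0.868 in B6-13D2, 0.167, 0.222 and 0.137 in D2 and 0.329, 0.304 and 0.374 in D2-13B6. The B6-13D2 libraries exceeded all others, with 1.61 ± 0.38 (adjusted p = 0.00139) against B6, on 83 reads in B6-13D2 and 22 in B6. Cox4i1, the common form, measured 313, 306 and 323 CPM in the 3 B6 libraries, 275, 322 and 288 in B6-13D2, 295, 280.04 and 266 in D2 and 253, 263 and 240.5 in D2-13B6. The D2-13B6 libraries were below the D2 ones and the B6-13D2 libraries overlapped the B6 ones, with -0.15 ± 0.052 (adjusted p = 0.0184) and -0.09 ± 0.052 (adjusted p = 0.142). The call in D2-13B6 against D2, a comparison in which Cox4i2 was not called, was lost without D2 replicate 1 (-0.10, adjusted p = 0.142) or D2-13B6 replicate 3 (-0.12, adjusted p = 0.089). The exons of Cox4i1 overlap Emc8 on the other strand.

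Cox7b2, an isoform of Cox7b known from testis, was highest in D2-13B6. It measured 0.220, 0.126 and 0.129 CPM in the 3 B6 libraries, 0.0346, 0.101 and 0.113 in B6-13D2, 0.208, 0.111 and 0.273 in D2 and 0.822, 0.636 and 1.05 in D2-13B6, on 84 reads in D2-13B6, 15 in D2, 11 in B6 and 7 in B6-13D2. D2-13B6 lay above every other library, and its log2 fold change was 2.13 ± 0.42 (adjusted p = 0.00027) against D2. The common Cox7b measured 76.4 ± 1.11 CPM in D2 and 78.7 ± 0.318 in D2-13B6 (SD, n = 3), a change of 0.04 ± 0.067 (adjusted p = 0.612).

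Among the common complex IV subunits, Cox5b, Cox8a and Cox7c showed different patterns. Cox5b measured 86.9, 96.2 and 97.6 CPM in the 3 B6 libraries, 87.4, 112 and 102 in B6-13D2, 89.2, 85.0 and 83.3 in D2 and 71.7, 72.6 and 69.8 in D2-13B6, lowest in D2-13B6, at -0.27 ± 0.067 (adjusted p = 0.00266) against D2. Cox8a, the highest member of complex IV per length at 306 CPM per kb in B6, rose by 0.23 ± 0.062 (adjusted p = 0.00348) in B6-13D2 against B6, with libraries that overlapped. Cox7c, at chr13:86044816-86046904, measured 157, 173 and 173 CPM in the 3 B6 libraries, 181, 226 and 207 in B6-13D2, 144, 147 and 157 in D2 and 145, 143 and 145 in D2-13B6. B6-13D2 lay above B6, at 0.29 ± 0.061 (adjusted p = 0.000559), and D2-13B6 overlapped D2, at -0.05 ± 0.061 (adjusted p = 0.508). Cox7a2l, a gene tied to supercomplexes of complexes III and IV, was lower in the congenic lines. Its changes were -0.14 ± 0.039 (adjusted p = 0.00581) in D2-13B6 against D2 and -0.10 ± 0.039 (adjusted p = 0.0358) in B6-13D2 against B6. Of these, the first was lost without D2 replicate 1 (-0.10, adjusted p = 0.0584), and the second under 13 of 19 alternatives, among them without B6 replicate 3 (-0.07, adjusted p = 0.186). Reads of Cox5b, Cox7c and Cox7a2l were partly shared with other genes, so their levels depend on how the authors divided them.

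**Figure D4:**
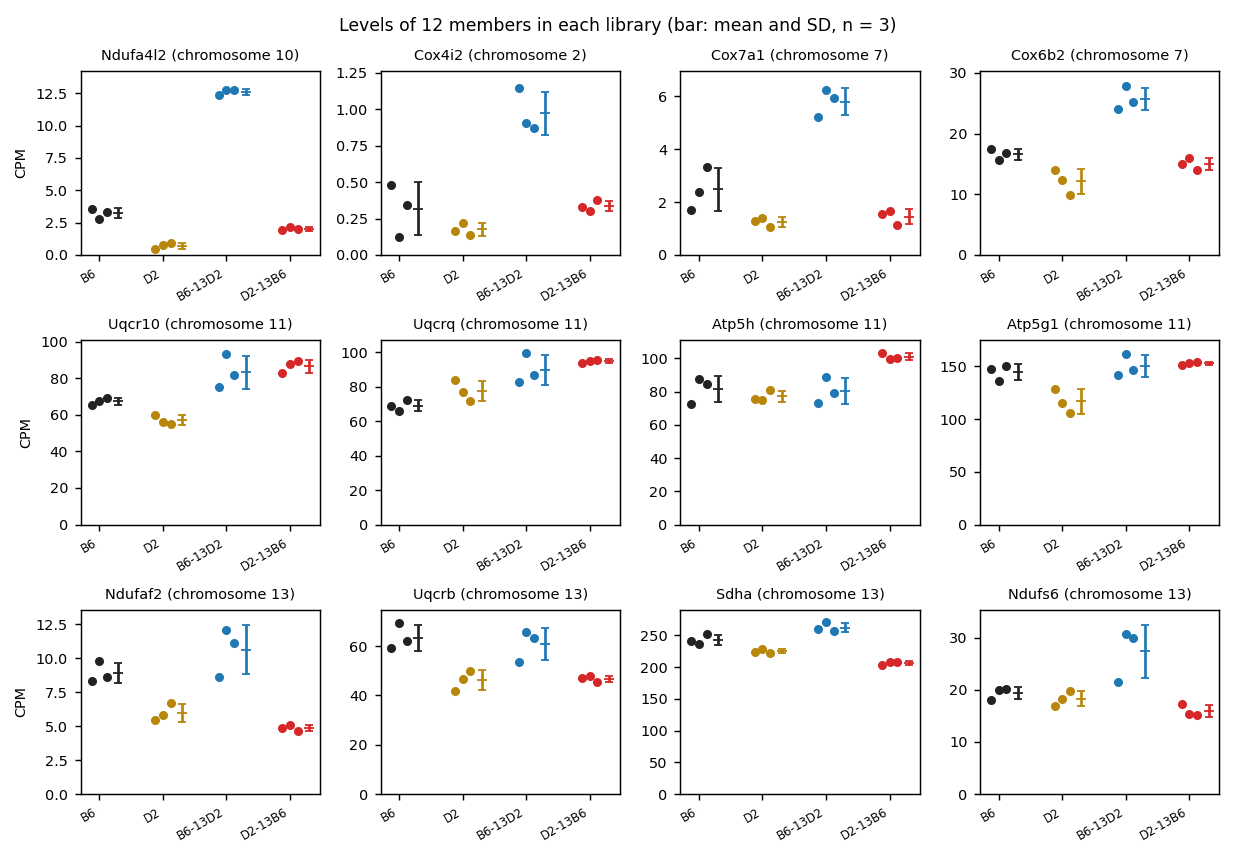
CPM (vertical axes, from 0, each with its own range) of 12 members in each library (points) with the group mean and SD as a bar (n = 3): the top row holds low-abundance paralogs, the middle row chromosome 11 members and the bottom row chromosome 13 members. The paralogs are highest in B6-13D2, Uqcr10 is high in both congenic lines, and Ndufaf2 and Uqcrb are lower in all D2-background libraries than in all B6-background ones.

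ATP synthase held the most RNA of the complexes: its 17 genes summed to 4663 ± 157 CPM in B6, 5073 ± 167 in B6-13D2, 4052 ± 109 in D2 and 4168 ± 33.7 in D2-13B6 (SD, n = 3). The genes of the catalytic F1 head dominated. Atp5b, the beta subunit, averaged 1745 ± 34.7 CPM in B6 and 1864 ± 45.8 in B6-13D2. Atp5a1, the alpha subunit, measured 1166, 1153 and 1257 CPM in the 3 B6 libraries, 1339, 1325 and 1286 in B6-13D2, 933, 946 and 952 in D2 and 941, 941 and 941 in D2-13B6. Its 6 D2-background libraries were all below the 6 B6-background ones, with -0.34 ± 0.034 (adjusted p = 1.49e-07) in D2 against B6 and 0.14 ± 0.034 (adjusted p = 0.00139) in B6-13D2 against B6, while D2-13B6 against D2 gave 0.00 ± 0.034 (adjusted p = 0.929). Of the 17 genes, 10 were lower in D2 than in B6 and none was higher, where 30.3% and 29.8% of all tested genes were. In B6-13D2, 9 rose against B6 (25.4%), and 14 were lower and 1 higher in D2-13B6 than in B6-13D2 (31.8% and 38.4%). Atp5mpl, a small membrane subunit, was 27.3 ± 0.737 CPM in B6 and 20.6 ± 1.72 in D2, a log2 fold change of -0.40 ± 0.076 (adjusted p = 0.000207).

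Subunit c, which forms the turning ring of the membrane part, is made from Atp5g1, Atp5g2 and Atp5g3. Atp5g1 measured 148, 136 and 151 CPM in the 3 B6 libraries, 142, 162 and 147 in B6-13D2, 129, 115 and 106 in D2 and 152, 153 and 154 in D2-13B6. D2 lay below all other libraries, and the log2 fold changes were -0.31 ± 0.061 (adjusted p = 0.000269) in D2 against B6 and 0.39 ± 0.06 (adjusted p = 2.35e-05) in D2-13B6 against D2. Atp5g2 measured 155, 145 and 159.5 CPM in the 3 B6 libraries, 185, 211 and 196 in B6-13D2, 153, 144 and 124 in D2 and 149, 149 and 146 in D2-13B6. Here B6-13D2 stood above the rest, at 0.37 ± 0.061 (adjusted p = 5.58e-05) against B6, and D2-13B6 was lower than B6-13D2, at -0.42 ± 0.061 (adjusted p = 7.91e-06). Atp5g3 measured 237, 211 and 235 CPM in the 3 B6 libraries, 223, 259 and 225 in B6-13D2, 190.00, 191 and 152 in D2 and 193, 193 and 196 in D2-13B6, lower in both D2-background groups, with -0.36 ± 0.073 (adjusted p = 0.000408) in D2 against B6 and -0.28 ± 0.072 (adjusted p = 0.00213) in D2-13B6 against B6-13D2. Reads of Atp5g1 and Atp5g2 were partly divided among genes, while those of Atp5g3 were whole in every library.

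Members on chromosome 11 were high in D2-13B6. All 5 (Uqcr10, Uqcrq, Atp5g1, Atp5h and Ndufaf8) were higher in D2-13B6 than in D2, with a median of 0.388, and all 5 were higher in the congenic minus parental comparison. Other chromosome 11 genes did so too: 58.9% of the 1386 tested genes there were called higher in D2-13B6 against D2, and 53.3% in the congenic minus parental comparison, so the count of 5 is to be read against those shares. In B6-13D2 against B6, 3 of the 5 rose (28.0% of the chromosome's genes), and in D2 against B6, 2 were lower (30.5%) and 1 higher. Atp5h, subunit d of the stalk, measured 72.7, 87.5 and 84.5 CPM in the 3 B6 libraries, 73.1, 88.6 and 79.3 in B6-13D2, 75.5, 75.3 and 80.8 in D2 and 103, 99.5 and 101 in D2-13B6. The D2-13B6 libraries exceeded all others, at 0.39 ± 0.065 (adjusted p = 5.04e-05) against D2 and 0.33 ± 0.064 (adjusted p = 0.000166) against B6-13D2, and its reads were partly divided. Ndufaf8, the partner of Ndufaf5, measured 7.69, 6.04 and 6.77 CPM in the 3 B6 libraries, 8.45, 11.4 and 8.68 in B6-13D2, 7.50, 7.59 and 6.46 in D2 and 9.32, 9.41 and 9.29 in D2-13B6. All congenic libraries were above all parental ones, with a difference of 0.43 ± 0.082 (adjusted p = 0.000187). Without chromosome 11, 15 members rose and 11 fell among 85 in D2-13B6 against D2. Of all tested genes, chromosome 11 included, 27.6% rose and 29.7% fell there.

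The 7 members on chromosome 13, the chromosome that carries the exchanged segment, were all lower in D2-13B6 than in B6-13D2. There 35.4% of the 638 tested genes of that chromosome were called lower, as were 68 of all 90 tested members. The 7 are Uqcrfs1, Uqcrb, Ndufs6, Sdha, Cox7c, Ndufaf2 and Ndufs4. In B6-13D2 against B6, 4 rose and none fell (19.4% of the chromosome's genes rose), and in D2-13B6 against D2 only Sdha was called, lower, against 41.4% of the chromosome's genes. In D2 against B6, 5 were lower (28.8%): Uqcrb, Ndufaf2, Sdha, Cox7c and Ndufs4. The Cox7c call was lost under 7 of 19 alternatives, among them without B6 replicate 2 or 3 or D2 replicate 1 or 2 (adjusted p = 0.0801 to 0.0957). The Ndufs4 call was lost under 8 of 19, among them without B6 replicate 1 or 3 or D2 replicate 3 (adjusted p = 0.0737 to 0.116). Ndufs4, an accessory subunit at chr13:114287795-114388258, was 39.6 ± 2.62 CPM in B6, 44.7 ± 2.44 in B6-13D2, 35.2 ± 2.29 in D2 and 36.0 ± 0.908 in D2-13B6 (SD, n = 3). It rose in B6-13D2 against B6 by 0.17 ± 0.058 (adjusted p = 0.016) and changed by 0.02 ± 0.058 (adjusted p = 0.756) in D2-13B6 against D2. The first call was lost without B6 replicate 2 (0.12, adjusted p = 0.0999) or B6-13D2 replicate 2 (0.13, adjusted p = 0.0899).

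The count of members that followed the segment alleles in both genomes depended on the fit. Of the 90, 18 were called in both congenic lines against their background strain, where 39.6% of all tested genes were. In 3 of them, Ndufa13, Ndufs7 and Sdha, the line with the D2 segment was higher on both backgrounds, and none was higher with the B6 segment on both. Such a pattern, in either direction, was met by 7.33% of all tested genes in the main fit. The count was 8 without a filter on low counts, 5 with genes of at least 1 CPM, 6 without B6-13D2 replicate 1 and 8 without the 3 libraries. Ndufa13, also known as Grim19, measured 36.4, 37.1 and 40.8 CPM in the 3 B6 libraries, 43.1, 47.7 and 42.0 in B6-13D2, 39.8, 37.5 and 34.1 in D2 and 30.9, 30.2 and 30.6 in D2-13B6. The D2-13B6 libraries were below the D2 ones at -0.28 ± 0.061 (adjusted p = 0.000747) and the B6-13D2 libraries above the B6 ones at 0.22 ± 0.061 (adjusted p = 0.00518); its reads were partly divided. The other 15 changed in the same direction in both congenic lines, a pattern of 32.2% of all tested genes. Among them Ndufa11, a membrane-arm subunit, measured 53.7, 55.7 and 53.2 CPM in the 3 B6 libraries, 59.6, 64.4 and 61.0 in B6-13D2, 61.2, 57.8 and 56.3 in D2 and 62.3, 64.5 and 62.7 in D2-13B6. The B6 libraries were below all others, with 0.19 ± 0.043 (adjusted p = 0.00131) in B6-13D2 and 0.11 ± 0.042 (adjusted p = 0.0303) in D2-13B6. Exons of Ndufa11 overlap Vmac on the other strand, which changed by 0.262 and 0.165 in these comparisons. Those of Ndufa13 overlap Tssk6, at 1.88 CPM in B6. The part of either overlap was not tested.

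The mitochondrially encoded partners of these subunits did not rise with them. None of the 13 was higher and 11 were lower in B6-13D2 than in B6, with a median of -0.40, where 25.4% of all tested genes were higher and 32.9% lower. In D2-13B6 against D2, 7 were lower and 1 higher, against 29.7% and 27.6%. In D2 against B6, 4 were lower, against 30.3%. The gene for cytochrome b of complex III, mt-Cytb, changed by -0.70 (adjusted p = 5.37e-10) in B6-13D2 against B6 and by -0.52 (adjusted p = 3.21e-08) in D2-13B6 against D2. The complex IV gene mt-Co1 fell in the first comparison, at -0.25 (adjusted p = 0.00156), and rose in the second, at 0.28 (adjusted p = 0.000632).

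A list of 16 genes held electron carriers outside the symbol rule (cytochrome c, Cyc1 and the electron transfer flavoproteins) and the makers of ubiquinone. Of them, 8 rose and 1 fell in B6-13D2 against B6 (25.4% and 32.9% of all tested genes), while 2 were higher and 3 lower in D2 than in B6 (29.8% and 30.3%). In D2-13B6 against D2, 5 rose and 2 fell (27.6% and 29.7%). Coq2, which attaches the side chain of ubiquinone, was lower in D2 than in B6, at -0.54 (adjusted p = 1.14e-06), and in D2-13B6 than in D2, at -0.46 (adjusted p = 1.13e-05). Cytochrome c itself, Cycs, changed by -0.11 (adjusted p = 0.148) in B6-13D2 against B6. Cyc1, the cytochrome subunit of complex III and 1 of the 8, rose there by 0.26 (adjusted p = 0.00144).

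Of 40 further assembly factors, 19 rose and 5 fell in B6-13D2 against B6, where 25.4% of all tested genes rose and 32.9% fell. In D2-13B6 against D2, 15 rose and 8 fell, against 27.6% and 29.7% of all tested genes. Of those 15, 8 lie on chromosome 11, where 58.9% of the tested genes were called higher: Ttc19, Lyrm7, Cox10, Cox11, Sco1, Coa3, Taco1 and Atpaf2. Between the parental strains 9 were higher and 9 lower in D2, against 29.8% and 30.3%. Lyrm7, a chromosome 11 gene that readies the Rieske protein for insertion into complex III, averaged 2.49 CPM in B6, 3.08 in B6-13D2, 11.1 in D2 and 20.3 in D2-13B6. Its change was 2.14 (adjusted p = 3.66e-09) in D2 against B6. Atpaf1, a chaperone of ATP synthase, was lower in D2, at -0.59 (adjusted p = 8.86e-06), and rose in B6-13D2, at 0.51 (adjusted p = 1.6e-05), each against B6. Sco2, a copper carrier for complex IV, went the opposite way in both, at 0.88 (adjusted p = 5.63e-06) and -0.96 (adjusted p = 1.28e-05).

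Of 14 regulators of mitochondrial genes, 9 were lower and 2 higher in D2 than in B6 (30.3% and 29.8% of all tested genes), and 4 rose and 2 fell in B6-13D2 against B6 (25.4% and 32.9%). Against D2, 7 rose and 2 fell in D2-13B6 (27.6% and 29.7%). Tfam, which packages and transcribes mitochondrial DNA, was lower in D2 at -0.37 (adjusted p = 2.75e-06), and Gabpa at -0.18 (adjusted p = 0.00276). Exons of Gabpa overlap the member Atp5j on the other strand, which changed by -0.19 there, and the part of this overlap was not tested. The coactivator Ppargc1b averaged 3.62 CPM in B6, 6.79 in B6-13D2, 1.14 in D2 and 3.91 in D2-13B6. It was lower in D2 than in B6 at -1.64 (adjusted p = 8.92e-08) and rose in both congenic lines, by 0.91 (adjusted p = 5.56e-06) in B6-13D2 and 1.75 (adjusted p = 1.96e-08) in D2-13B6. Its relative Ppargc1a, under 2 CPM in every group mean, was higher in D2 at 1.55 (adjusted p = 0.0017) and lower in both congenic lines, at -1.15 (adjusted p = 0.0497) in B6-13D2 and -1.41 (adjusted p = 0.00213) in D2-13B6.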

How the data were processed

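The authors deposited expected counts per gene ID and library, made with EMASE as the table's own title says. The submitters' processing notes name Bowtie 1.0.0, edgeR 3.34.1 and mm10; settings, filters and use of strand are not given in the sources used here. Values of 70 members were whole in every library (tolerance 1e-06), and 23 had divided reads. Exons of 29 members overlap a gene on the other strand and those of 5 a gene on the same strand. Symbols and positions come from GENCODE M21 (GRCm38), which lists 94 genes meeting the rule; a second Atp5o entry is not among the rows used here. Of the table's IDs, 884 were not found there.

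Expected counts were rounded and fitted in R 4.3.3 with edgeR 4.0.16: filterByExpr (minimum count 10), TMM, 4 group means and all 12 libraries. Standard errors are the absolute log2 fold change over the square root of F. CPM per kb divides by the merged exon length. The code was tested on simulated data, and motif letters were searched as exact matches in RefSeq promoters (GRCm38.p6). Groups and replicate numbers come from the titles. Libraries of a group differed by more than sampling noise (chi-square per degree of freedom 1.95 to 8.6).

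Members, lists and tests were chosen with earlier results of these data known. Named members were the 3 highest and 3 lowest called members per comparison with a mean of at least 1 CPM and no overlap between groups, those on chromosome 13, of complex II, following the segment allele or in paralog sets (37 in all); others named were picked after their values were seen. Alternatives were DESeq2 1.42.0, RLE size factors, no filter, a mean of at least 1 CPM, a block for the replicate number, fits of the compared libraries alone, each library left out, and, added after seeing the data, 3 libraries left out together. The values of 1 complex I member are not reported here on their own, though it is in the counts and sums.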

Additional observations from a re-analysis of the deposited data

Results flagged for a closer look

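The D2 segment effect (line with the D2 segment minus line with the B6 segment) differed between the B6 and the D2 genome for 44 of the 90 tested members, by the interaction in edgeR's quasi-likelihood fit, with 64.5% of all tested genes called. The value below is the effect in the B6 genome minus that in the D2 genome, in log2. It equals 2 times the congenic minus parental difference, so anything shared by the congenic libraries cannot be told apart from it. Among the named members that were called, low-abundance paralogs gave the largest values: 3.44 for Ndufa4l2, 2.48 for Cox4i2, 1.43 for Cox7a1 and 0.94 for Cox6b2. Members on chromosome 11 gave 0.91 for Uqcr10, 0.85 for Ndufaf8, 0.44 for Atp5g1 and 0.37 for Atp5h. Positive values were also found for Atp5g2 (0.44), Cox8a (0.33), Ndufa11 (0.30), Cox7c (0.24) and Ndufs4 (0.20). The Ndufs4 call was lost under 9 of 18 alternatives, 7 of them leaving out 1 library (adjusted p up to 0.138), and the Cox7c call without B6 replicate 1 (adjusted p = 0.0711), D2 replicate 2 (0.0521) or B6-13D2 replicate 2 (0.0761). The values of Ndufaf4 (-0.46), Cox4i1 (-0.25) and Cox7a2l (-0.24) were negative, the Cox4i1 call being lost without D2 replicate 1 (adjusted p = 0.0508).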

How the results depend on the processing

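Across 19 alternatives, 126 log2 fold changes of named members gave 2357 values: 2182 kept their side of the threshold, 85 lost a call, 90 gained one and 0 reversed a call, with 44 results affected. Among the 2182, 73 values of 19 results had the other sign, none of them called in either fit. Members called came to 36 to 57 in D2 against B6, 35 to 65 in B6-13D2 against B6, 24 to 42 in D2-13B6 against D2, 65 to 76 in D2-13B6 against B6-13D2 and 40 to 57 in the congenic minus parental comparison, against 51, 46, 31, 70 and 44. With RLE size factors, 33 members were lower in D2 than in B6 and 64 higher in B6-13D2 than in B6; the median relative to all genes stayed at -0.164 and 0.195. Members following the segment allele numbered 3, but 8 without a filter, 5 at a mean of at least 1 CPM and 8 with the 3 libraries left out together; leaving out single libraries gave 3 to 6. The cause was not tested. Same-numbered libraries deviated without a common pattern (mean r -0.011, from -0.125 to 0.068 over 18 pairs), so the numbers do not pair the samples; the replicate block gave 52, 47, 30, 69 and 43 members called in the 5 comparisons, in the order above. Depth limits the precision of Cox4i2 and Cox7b2, which had under 100 reads in every group.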
